A study of Mus musculus with 8 samples.

Results

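The unstimulated macrophages labelled hMPDM were compared with the unstimulated macrophage-like line RAW 264.7 (RAW) across all genes of the deposited count table, with 1 library on each side. These 2 libraries were taken, by their labels, from a series of 8. Of 43346 genes in the table, 12461 had enough reads to be tested. The series holds polyadenylated RNA from mouse hMPDM (1 library at rest and 1 after 3 h of lipopolysaccharide, LPS), RAW (1 and 1) and bone marrow-derived macrophages (BMDM, 2 and 2). BMDM were grown in L929-conditioned medium and RAW cells in DMEM with 10% serum. No allele or transgene is named for any group. For hMPDM, the meaning of the abbreviation and the culture were not given in the sources used here, nor were any mouse strain or age or the dose of LPS. The number of cultures behind the libraries of 1 group is likewise not stated.

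Macrophages depend on the growth factor CSF1 and its receptor CSF1R, and on the transcription factor PU.1 (gene Spi1), for their identity. They take up dead cells and microbes through scavenger, lectin and integrin receptors, sense LPS through TLR4 with CD14, present peptides on MHC class II, and hold a low interferon-stimulated programme at rest that infection raises. RAW 264.7 was derived from a tumour of a mouse infected with Abelson leukaemia virus. The line is widely used as a macrophage model and as a precursor of osteoclasts, the bone-resorbing relatives of macrophages.

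The hMPDM library held 15318338 counts and the RAW library 3116434, so a count of 0 allowed a level of up to 0.180 CPM (the usual CPM scale after TMM normalization, at a limit of 3 counts) in hMPDM and 0.785 CPM in RAW. Since each side had 1 library, the difference at rest has no replicate error of its own and is given without a p-value. A fit that takes its spread from the BMDM pairs alone (1 coefficient per group, edgeR quasi-likelihood test) called 3805 genes (30.5%) higher in unstimulated hMPDM and 3347 (26.9%) higher in unstimulated RAW, on the assumption that hMPDM and RAW vary as BMDM do. A gene was called different where its log2 ratio (prior count 2) was at least 2 in size, which is 4-fold, with at least 5 CPM in the higher library. Between the 2 unstimulated BMDM libraries the same rule called 1 gene (0.00803%), and between the 2 BMDM libraries after LPS it called 0 (0.0%). The chi-square per degree of freedom was 1.63 between the BMDM libraries at rest and 1.70 after LPS, where counting error alone gives about 1. The fit with 1 coefficient per group thus gave hMPDM and RAW this small spread, and its calls depend on that. Exact 95% intervals beside ratios cover counting error only. In bulk RNA, fewer cells of a type and less RNA per cell cannot be told apart. Another 15 genes were chosen after the values were seen because unstimulated hMPDM held at most 5% of their BMDM level. Their pooled level in hMPDM was 1.38% of that of BMDM at rest and 10.8% after LPS. The share at rest was low by the choice of genes, so the 2 shares are not a like comparison. What part the higher share has in the values after LPS was not tested.

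Both libraries carried the defining markers of macrophages. Csf1r, the CSF1 receptor, stood at 1554 CPM in hMPDM and 1617 CPM in RAW. Spi1 stood at 224 CPM in hMPDM and 237 CPM in RAW, and Cd68, a lysosomal membrane marker, at 2323 CPM in hMPDM and 1494 CPM in RAW. Ptprc, the leukocyte antigen CD45, stood at 420.3 CPM in hMPDM and 283 CPM in RAW. Adgre1, the surface marker F4/80, was 2.53-fold higher (95% interval 2.37 to 2.70) in hMPDM. None of these 5 genes passed the rule. Over the 2 states, an additive edgeR quasi-likelihood fit gave Csf1r an adjusted p of 0.998 (Benjamini-Hochberg) and Spi1 an adjusted p of 0.179, so that neither passed. In the same edgeR fit Adgre1 (adjusted p = 0.000137), Cd68 (adjusted p = 0.000274) and Ptprc (adjusted p = 0.0110) were higher in hMPDM.

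Of the 12461 genes, 532 (4.27%) passed the rule towards hMPDM and 354 (2.84%) towards RAW, together 7.11%. The genes higher in hMPDM took 5.604% of all hMPDM counts and 0.580% of RAW counts. Those higher in RAW took 2.89% of RAW counts and 0.313% of hMPDM counts. Many of the differences were between presence and near absence. In RAW, 98 of the 532 had 0 counts and 236 had at most 3, and in hMPDM 48 of the 354 had 0 counts and 98 at most 3. The 2 sides cannot be compared in this, since 3 counts are 0.785 CPM in RAW and 0.180 CPM in hMPDM. The median log2 ratio of all genes was 0.06. At the edge of the rule, Slc36a4 (log2 ratio -2.002) was just inside and Fndc10 (-1.998) just outside. With libraries scaled by total counts alone, log2 ratios moved by -0.17 in the median, less or more where counts were low, and the numbers became 496 and 424. Among genes named below, the ratios of Bst2, Ddit3, Gas6, Hoxb4, Hvcn1, Insig1, Irf7, Klf4, Pltp and Sesn2 then fell short of 4-fold.

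**Figure D1:**
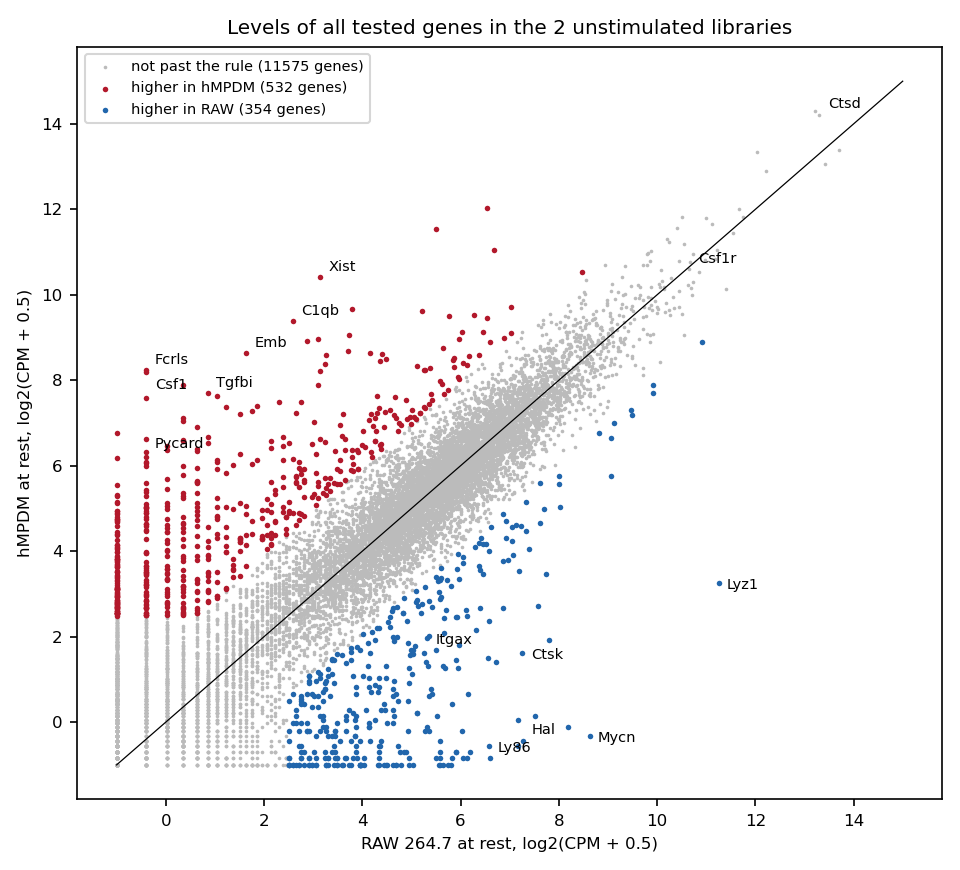
Level of each of 12461 genes in the unstimulated RAW library (horizontal axis) and the unstimulated hMPDM library (vertical axis), both as log2(CPM + 0.5), with the line of equal level. Red points are the 532 genes higher in hMPDM, blue points the 354 higher in RAW, and the columns of points at the left are genes with 0, 1, 2 or 3 counts in RAW.

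The protein-coding gene with the largest ratio towards hMPDM was Fcrls, an Fc receptor-like gene known from microglia (ENSMUSG00000015852.9, chromosome 3, 87250758 to 87263738, mm10), with 4986 counts in hMPDM and 1 in RAW. Its level was 299.7 CPM in hMPDM and 0.262 CPM in RAW, and 73.6 and 67.4 CPM in BMDM. Csf1, which encodes the growth factor of the lineage itself (ENSMUSG00000014599.6, chromosome 3, 107741048 to 107760469, mm10), had 4835 counts and 1, or 291 CPM in hMPDM and 0.262 CPM in RAW. Both were thus read once in RAW, and their ratios can only be placed widely: at 1145-fold higher (95% interval 205 to 45249) for Fcrls and at 1111-fold higher (95% interval 199 to 43879) for Csf1. After LPS Csf1 reached 1166 CPM in hMPDM and 6.85 CPM in RAW. Osbp2, an oxysterol-binding protein gene, was not counted in RAW and had 1811 counts in hMPDM, which is at least 139-fold higher against a floor of 3 counts. Eya1, a transcriptional co-activator with phosphatase activity, had 3196 counts and 1. Other leading genes at 0 counts in RAW were Ppp1r3b, a glycogen-targeting subunit of protein phosphatase 1 (at least 91.7-fold), Cgnl1 of cell junctions (at least 58.6-fold), Fcho1 of endocytosis (at least 50.5-fold) and Rapsn, of the synapse between nerve and muscle (at least 49.1-fold). Treml2, a receptor of the TREM family, had 1643 counts and 1, and Nxpe5 3939 and 3.

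In the other direction Mycn, the proto-oncogene N-Myc (ENSMUSG00000037169.10, chromosome 12, 12936096 to 12941914, mm10), had the largest ratio. It stood at 0.301 CPM in hMPDM and 396 CPM in RAW, which is 1317-fold higher (95% interval 563 to 4063) in RAW. After LPS it stood at 0.436 CPM in hMPDM and 336 CPM in RAW, and the 2 unstimulated BMDM libraries held 0.179 and 0.0484 CPM. Its relative Myc went the other way at rest, with 32.2 CPM in hMPDM and 1.83 CPM in RAW, 17.6-fold higher (95% interval 8.46 to 43.9) in hMPDM. After LPS the 2 cell types no longer differed by the rule in Myc, which then stood at 13.1 CPM in hMPDM and 15.8 CPM in RAW. Flnc, an actin-binding filamin, had 1 count in hMPDM and 370 in RAW (1611-fold higher, 95% interval 287 to 63788). Hal, the histidine-degrading enzyme histidase (ENSMUSG00000020017.10, chromosome 10, 93488768 to 93519304, mm10), stood at 0.240 CPM in hMPDM and 154 CPM in RAW, 642-fold higher (95% interval 249 to 2364) in RAW. Zfhx4 (at least 308-fold higher in RAW), the sodium-proton exchanger gene Slc9a4 (at least 295-fold), the protocadherin-like gene Fat1 (at least 258-fold), Sgsm1 (at least 264-fold), the proton pump subunit gene Atp6v0e2 (at least 274-fold) and the arsenic methyltransferase gene As3mt (at least 168-fold) were not counted in hMPDM. All of these but As3mt were counted at most 5 times in either unstimulated BMDM library, where As3mt stood at 1.49 and 1.31 CPM.

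Lists of genes were described by how many members passed the rule and by their median, to be read beside the 4.27% and 2.84% of all genes and the median of 0.06. A member enters only if it passed the filter on low counts, which a gene at 0 in one library passes through the other, so counts and medians describe the list and support nothing. Of 40 lists, 27 had more members called higher in hMPDM than in RAW and 4 the reverse. Some of the 27 rest on 1 called gene: the sex-linked, inflammasome, neutrophil, B cell, dendritic cell and stromal lists. Lists also share genes, such as Itgb3, Ctsk and Mmp14, so the 40 are not separate observations. By number, the interferon list had the most members on the hMPDM side (23 of 64, 35.9%), followed by the cytokine receptors (9 of 54, 16.7%). These numbers depend on list size. By share, other lists lay above the cytokine receptors, such as the nitric oxide list (28.6%) and efferocytosis (27.3%). The osteoclast list had the most on the RAW side (6).

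**Figure D2:**
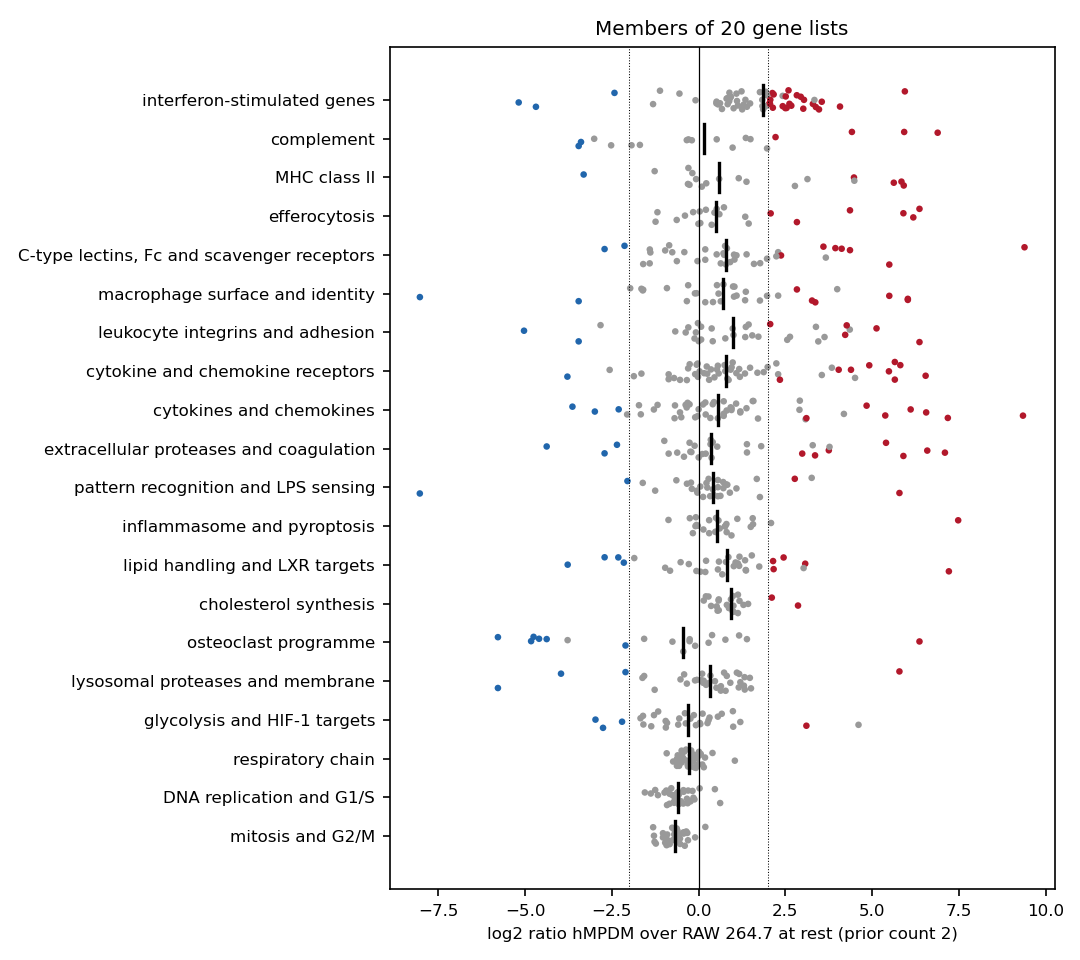
Log2 ratio of hMPDM over RAW at rest (horizontal axis) for the tested members of 20 gene lists, with 1 point per gene and a black bar at each list's median. Red and blue points passed the rule towards hMPDM and RAW, grey points did not (some lie beyond the dotted lines at a log2 of 2 because they were under 5 CPM). The interferon list has its median at 1.85 and the mitosis list at -0.68.

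Of the macrophage surface and identity genes, 33 of 35 were tested, 6 were higher in hMPDM and 2 in RAW, with a median of 0.71. Mrc1, the mannose receptor CD206, stood at 4156 CPM in hMPDM and 92.1 CPM in RAW, 45.1-fold higher (95% interval 40.6 to 50.3) in hMPDM, and at 2085 and 2056 CPM in BMDM. Ms4a7 was 9.65-fold higher (95% interval 8.59 to 10.9) in hMPDM, and Cd5l, a secreted scavenger-type protein, stood at 28.6 CPM in hMPDM and 2.62 CPM in RAW. P2ry12, an ADP receptor best known from microglia, and Folr2, a folate receptor of tissue macrophages, each had 198 counts in hMPDM and 0 in RAW, which is at least 15.2-fold higher. On the RAW side Itgax, the integrin CD11c, stood at 3.43 CPM in hMPDM and 39.5 CPM in RAW, 11.5-fold higher (95% interval 8.45 to 15.9). Lyz1 (ENSMUSG00000069515.5, chromosome 10, 117287796 to 117292868, mm10), a second lysozyme gene, stood at 9.14 CPM in hMPDM and 2443 CPM in RAW, 267-fold higher (95% interval 228 to 316). Lyz2, the lysozyme gene of macrophages, stood at 8621 CPM in hMPDM and 10914 CPM in RAW, and the transcripts of Lyz1 and Lyz2 are 95.8% identical, so reads may have been split between them in ways the counts do not show.

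Myeloid transcription factors were called in both directions, and HOX and progenitor genes mostly towards hMPDM. Of 41 myeloid transcription factor genes tested, 4 were higher in hMPDM (Runx3, Maf, Pparg, Klf4) and 3 in RAW (Cebpe, Egr1, Nr1h3). Maf stood at 701 CPM in hMPDM and 92.9 CPM in RAW, 7.55-fold higher (95% interval 6.79 to 8.41). Cebpe, a factor of granulocyte maturation, had 1 count in hMPDM and 34 in RAW. Of 36 HOX and progenitor genes, 26 were tested, 7 were higher in hMPDM and 1, Mycn, in RAW. The median of 3.38 was 1.70 when genes at 0 counts were set at their bounds. Cd34, a stem cell surface sialomucin, had 490 counts in hMPDM and 0 in RAW (at least 37.5-fold), Ly6a (Sca-1) 254 and 0 (at least 19.4-fold), and Sox4 200 and 0 (at least 15.3-fold). Mecom, a regulator of blood stem cells, had 112 counts in unstimulated hMPDM and 0 in unstimulated RAW and BMDM. Cd93 stood at 783 CPM in hMPDM and 36.9 CPM in RAW.

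The HOX genes split between the cells. Hoxb4 stood at 17.4 CPM in hMPDM and 3.92 CPM in RAW, 4.43-fold higher (95% interval 2.64 to 8.01) in hMPDM, and at 4.42 and 4.65 CPM in unstimulated BMDM. Hoxa7 had 81 counts in hMPDM and 0 in RAW but was under 5 CPM. Hoxb7, named here after its values were seen and in no list, had 0 counts in hMPDM and 58 in RAW, at least 84.2-fold higher there. Over both states Hoxb4 passed the fit with a log2 difference of 2.20 (SE 0.19; edgeR adjusted p = 0.000130). This SE is the size of the value over the square root of the F statistic.

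**Figure D3:**
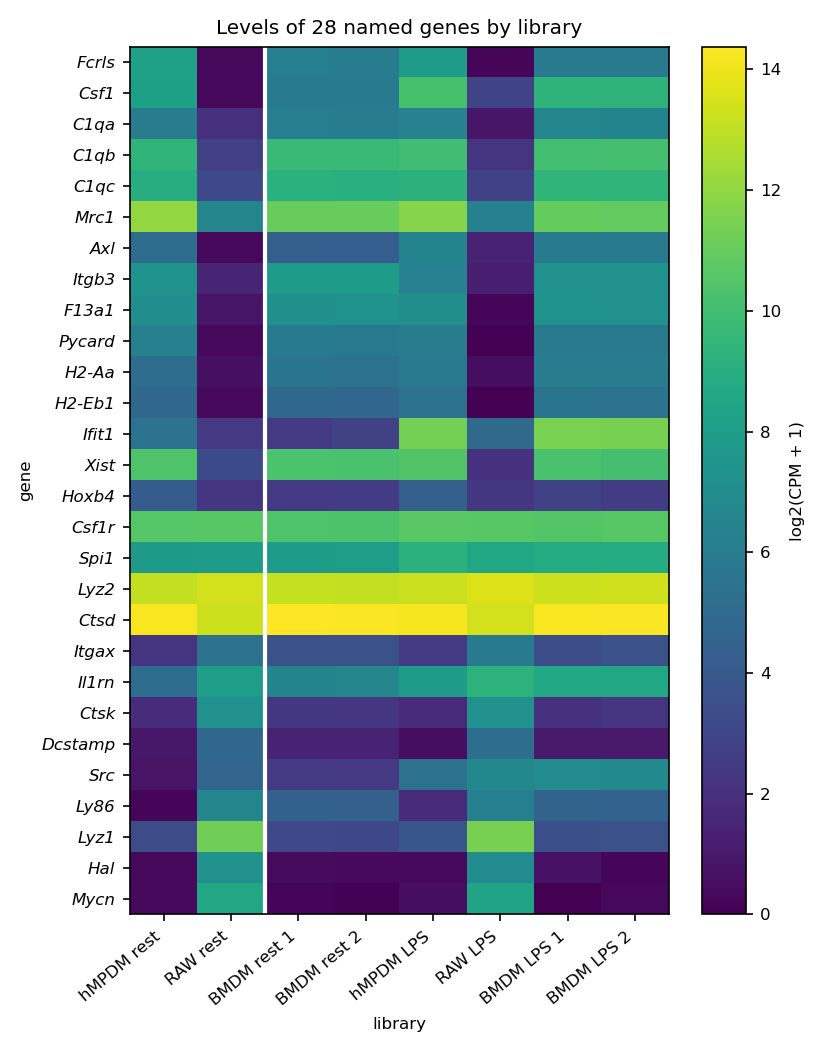
Levels of 28 named genes as log2(CPM + 1) in each of the 8 libraries, with the hMPDM and RAW libraries at rest left of the white line. C1qa, C1qb, C1qc and Mrc1 are higher in every hMPDM and BMDM library than in either RAW library, Csf1r lies between 1296 and 1678 CPM in all 8, and Mycn, Hal and Lyz1 stand out in the 2 RAW libraries.

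The 3 chains of complement C1q, which are made by macrophages and tag dying cells and synapses, were all higher in hMPDM. C1qb (ENSMUSG00000036905.8, chromosome 4, 136880129 to 136886187, mm10) stood at 672 CPM in hMPDM and 5.49 CPM in RAW, 122-fold higher (95% interval 80.0 to 198), C1qc at 503 CPM in hMPDM and 8.11 CPM in RAW, 62.0-fold higher (95% interval 43.7 to 91.3), and C1qa at 65.2 CPM in hMPDM and 2.88 CPM in RAW, 22.7-fold higher (95% interval 12.6 to 45.5). BMDM held C1qb at 823 and 816 CPM. The receptor of the fragment C5a, C5ar1, was 4.65-fold higher (95% interval 4.15 to 5.22) in hMPDM, while C1ra, a protease of the C1 complex, was 14.1-fold higher (95% interval 6.22 to 36.2) in RAW. Of 18 complement genes tested these 4 were higher in hMPDM, and C1ra and Itgax in RAW. The list's median was 0.16, and -0.20 with bounds.

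The chain genes H2-Aa, H2-Ab1 and H2-Eb1 of MHC class II had at most 3 counts each in RAW and were low in hMPDM. H2-Aa stood at 34.7 CPM in hMPDM and 0.523 CPM in RAW, with 2 counts in RAW (66.4-fold higher, 95% interval 18.3 to 549), H2-Ab1 at 21.4 CPM in hMPDM and 0.785 CPM in RAW, and H2-Eb1 at 26.7 CPM in hMPDM and 0.262 CPM in RAW. H2-DMb1, of the peptide-loading complex, had 174 and 0 counts, but it has a near-identical copy, H2-DMb2. Ciita, the master regulator of the class, had 66 counts in hMPDM and 0 in RAW and stayed under 5 CPM. The invariant chain gene Cd74 was alike, at 84.0 CPM in hMPDM and 78.8 CPM in RAW. Ifi30, a lysosomal thiol reductase that prepares antigens, was 9.98-fold higher (95% interval 9.22 to 10.8) in RAW. In all, 4 of 19 tested class II pathway genes were higher in hMPDM and 1 in RAW. The summed level of the list was 3715 CPM in hMPDM and 4509 CPM in RAW. Most of it came from members other than the 3 chain genes and Cd74, so it does not measure class II chains. Of 23 class I genes none was higher in hMPDM by the rule, with H2-K1 2.92-fold higher (95% interval 2.77 to 3.09) there, and H2-Q6 was higher in RAW, where H2-Q10, of the same multigene family, was also higher (0.120 CPM in hMPDM and 72.2 CPM in RAW). Reads of such near-alike genes are uncertain in their assignment.

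Interferon-stimulated genes formed the list with the most members higher in hMPDM. Of 65 genes 64 were tested, and 23 were higher in hMPDM and 3 in RAW, with a median of 1.85 and 57 ratios above 0. Scaled by total counts, 17 and 3 passed, Irf7 and Bst2 no longer among them. Their summed level was 4221 CPM in hMPDM and 1652 CPM in RAW, and 1724 and 1718 CPM in unstimulated BMDM. Oasl2, of the oligoadenylate synthetase family, stood at 131 CPM in hMPDM and 7.59 CPM in RAW, 17.2-fold higher (95% interval 12.0 to 25.8). Mx1, an antiviral GTPase, was 12.3-fold higher (95% interval 5.57 to 33.6), Ifit3 12.5-fold higher (95% interval 6.72 to 26.1) and Ifi204, a DNA sensor of the Ifi200 family, 10.6-fold higher (95% interval 7.54 to 15.3) in hMPDM. Trim30d had 454 counts and 1. Ifit1 stood at 42.6 CPM in hMPDM and 4.19 CPM in RAW, and at 4.48 and 6.06 CPM in BMDM, and Irf7, the amplifier of the programme, at 60.5 CPM in hMPDM and 14.7 CPM in RAW, and 6.81 and 6.25 CPM in BMDM. In sum, unstimulated hMPDM held more of these transcripts than the unstimulated RAW library or either unstimulated BMDM library.

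The interferon genes higher in RAW were Ifi44 (0.481 CPM in hMPDM and 24.1 CPM in RAW), Ifi213 (0.481 CPM in hMPDM and 17.0 CPM in RAW) and Phf11d (3.31 CPM in hMPDM and 18.6 CPM in RAW). Ifi202b, a leading RAW gene of the Ifi200 family, had 0 counts in all hMPDM and BMDM libraries at rest and 103 in RAW. The receptor subunits did not pass the rule: Ifnar1 stood at 181 CPM in hMPDM and 152 CPM in RAW and Ifnar2 at 86.7 CPM in hMPDM and 85.0 CPM in RAW. Ifnb1, the gene of interferon beta, had 0 counts in both libraries. In the fit over both states 50 of the 64 genes were higher in hMPDM and 0 in RAW (29.9% and 24.8% of all genes), and after LPS the list's median ratio was 4.09. That fit assumes an LPS term common to the cell types, while after LPS the list summed to 54894 CPM in hMPDM and 2893 CPM in RAW. Its calls therefore do not describe the state at rest alone.

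Of 33 pattern recognition and LPS sensing genes, 2 were higher in hMPDM and 2 in RAW. Tlr4 stood at 148 CPM in hMPDM and 96.0 CPM in RAW and its partner Ly96 (MD-2) at 11.9 CPM in hMPDM and 11.5 CPM in RAW. Cd14, which hands LPS to that complex, stood at 166 CPM in hMPDM and 507 CPM in RAW, 3.06-fold higher (95% interval 2.88 to 3.24) in RAW and short of the rule. Tlr2, the receptor of bacterial lipopeptides, was 4.15-fold higher (95% interval 3.89 to 4.44) in RAW at 109 CPM in hMPDM and 452 CPM in RAW. Ly86 (MD-1, ENSMUSG00000021423.5, chromosome 13, 37345345 to 37419036, mm10), the partner of the TLR4-like receptor Cd180, stood at 0.180 CPM in hMPDM and 95.8 CPM in RAW, 531-fold higher (95% interval 180.3 to 2587) in RAW, and at 20.9 and 20.3 CPM in BMDM. Cd180 itself was counted in both, at 488 CPM in hMPDM and 261 CPM in RAW. Tlr5, the flagellin receptor, had 167 counts in hMPDM and 0 in RAW, and Nod1 107 and 3. Ly86 was 1 of the 15 genes near absent in unstimulated hMPDM, and stood at 2.40 CPM in hMPDM after LPS.

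Pycard, the adaptor ASC that joins inflammasome sensors to caspase-1 (ENSMUSG00000030793.3, chromosome 7, 127992103 to 127993867, mm10), was the single inflammasome gene of 26 tested that passed the rule. It had 1323 counts in hMPDM and 1 in RAW, or 79.5 CPM in hMPDM and 0.262 CPM in RAW, and 63.9 and 0 CPM after LPS. The 2 unstimulated BMDM libraries held 56.3 and 56.1 CPM. The sensor gene Nlrp3 stood at 72.1 CPM in hMPDM and 51.3 CPM in RAW, Casp1 at 79.3 CPM in hMPDM and 94.7 CPM in RAW and the pore-forming Gsdmd at 57.6 CPM in hMPDM and 61.5 CPM in RAW, without passing.

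Among 51 cytokine genes tested, 7 were higher in hMPDM and 3 in RAW. Besides Csf1, the chemokine Ccl12 (0 counts in RAW, at least 34.0-fold higher), the growth factor Hgf (287 counts in hMPDM and 0 in RAW), Pf4 (70.9-fold higher, 95% interval 48.3 to 109), Ccl6 (42.4-fold higher, 95% interval 30.4 to 60.9), the vascular growth factor Vegfa and Ccl7 (29.3-fold higher, 95% interval 20.6 to 43.1) were higher in hMPDM. On the RAW side were Cxcl14 (14.0-fold higher, 95% interval 8.60 to 23.8), the interleukin-1 antagonist Il1rn (32.4 CPM in hMPDM and 259 CPM in RAW; 8.00-fold higher, 95% interval 7.19 to 8.90) and Cxcl16 (4.98-fold higher, 95% interval 4.24 to 5.85). Tnf and Il1b did not pass at rest: Tnf stood at 32.1 CPM in hMPDM and 52.1 CPM in RAW and Il1b at 1.68 CPM in hMPDM and 0.785 CPM in RAW. Of 54 receptor genes, 9 were higher in hMPDM and 1 in RAW. Tnfrsf21 (death receptor 6) had 689 counts and 1, Igf1r 170 and 0, Il3ra 524 and 2, and the decoy receptor Il1r2 152 and 0. Il21r was 53.5-fold higher (95% interval 29.8 to 107), Il4ra 16.5-fold higher (95% interval 13.3 to 20.7) and the chemokine receptor Ccr1 22.1-fold higher (95% interval 12.6 to 43.0) in hMPDM. Il1rl1, the receptor of interleukin-33, was 14.7-fold higher (95% interval 10.4 to 21.1) in RAW.

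Receptors for uptake and adhesion leaned to hMPDM. Of 22 tested genes for the clearance of dead cells (efferocytosis), 6 were higher in hMPDM and 0 in RAW. The receptor kinase Axl had 538 counts and 1, its relative Mertk was 7.17-fold higher (95% interval 5.75 to 9.04), and Gas6, the bridging ligand of both, stood at 1491 CPM in hMPDM and 354 CPM in RAW, 4.21-fold higher (95% interval 3.99 to 4.45). Stab1, a scavenger receptor, stood at 2110.2 CPM in hMPDM and 103 CPM in RAW, 20.6-fold higher (95% interval 18.6 to 22.8), and Thbs1 at 807 CPM in hMPDM and 13.3 CPM in RAW, 60.5-fold higher (95% interval 46.0 to 81.3). Itgb3, the integrin beta 3 chain, was 90.5-fold higher (95% interval 43.9 to 225). In the list of lectins, Fc and scavenger receptors 7 of 39 were higher in hMPDM, while Colec12 (4.40-fold higher, 95% interval 4.14 to 4.68) and Clec4a3 (6.69-fold higher, 95% interval 5.29 to 8.50) were higher in RAW. Msr1, the type 1 scavenger receptor, was 3.03-fold higher (95% interval 2.90 to 3.17) in RAW and did not pass. Of 33 integrin and adhesion genes 5 were higher in hMPDM, among them Itga6 (35.6-fold higher, 95% interval 25.2 to 52.2) and the tetraspanin Cd81 (18.8-fold higher, 95% interval 15.1 to 23.8), and 2 in RAW, Itga7 and Itgax.

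Extracellular protease and coagulation genes gave 7 of 31 higher in hMPDM and 3 in RAW. F13a1, the A chain of clotting factor XIII, had 2206 counts and 3 (169-fold higher, 95% interval 57.7 to 819.7), and the collagenase gene Mmp13 712 and 1. Mmp12, macrophage elastase, was 10.3-fold higher (95% interval 8.18 to 13.2) in hMPDM, and Fn1, fibronectin, had 127 counts in hMPDM and 0 in RAW. Mmp14 (25.2-fold higher, 95% interval 14.2 to 48.1) and F10 (5.36-fold higher, 95% interval 3.66 to 7.88) were among those higher in RAW.

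Genes of the mixed list of nitric oxide, arginine and alternative activation were on the hMPDM side in 6 of 21 and on the RAW side in 1. The list also holds genes of leukotriene and prostaglandin synthesis, so these numbers do not measure alternative activation. Besides Mrc1, Fn1 and Il4ra these were Chil3 (104 and 0 counts), the leukotriene C4 synthase Ltc4s (9.08-fold higher, 95% interval 5.26 to 17.2) and the prostaglandin synthase Ptgs1 (7.84-fold higher, 95% interval 6.22 to 10.0). Alox5, the first enzyme of leukotriene synthesis, was 6.68-fold higher (95% interval 4.48 to 10.1) in RAW. Nos2, inducible nitric oxide synthase, had 7 and 2 counts. Of 10 phagocyte NADPH oxidase genes 1 passed each way. Cybb, the catalytic chain of the phagocyte NADPH oxidase, stood at 209 CPM in hMPDM and 972 CPM in RAW, 4.66-fold higher (95% interval 4.44 to 4.88) in RAW, its partner Cyba at 407 CPM in hMPDM and 387 CPM in RAW, and the proton channel Hvcn1 was 4.40-fold higher (95% interval 3.72 to 5.23) in hMPDM.

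Of 19 tested genes of the osteoclast programme, 6 were higher in RAW and 1, Itgb3, in hMPDM, with a median of -0.44. Ctsk, the collagen-degrading cathepsin K of bone resorption (ENSMUSG00000028111.3, chromosome 3, 95499286 to 95509362, mm10), stood at 2.58 CPM in hMPDM and 153 CPM in RAW, 59.0-fold higher (95% interval 43.3 to 82.4) in RAW. After LPS it stood at 2.40 and 153 CPM, and BMDM at rest held 4.06 and 3.92 CPM. The fusion gene Dcstamp stood at 0.902 CPM in hMPDM and 26.2 CPM in RAW, the kinase Src at 0.721 CPM in hMPDM and 24.3 CPM in RAW, 33.7-fold higher (95% interval 18.4 to 67.6), carbonic anhydrase Car2 at 0.180 CPM in hMPDM and 10.2 CPM in RAW, 56.6-fold higher (95% interval 18.0 to 286), and the phosphatase Acp5 at 2.22 CPM in hMPDM and 10.2 CPM in RAW, 4.59-fold higher (95% interval 2.85 to 7.40). The receptor of RANKL, Tnfrsf11a, stood at 49.8 CPM in hMPDM and 59.7 CPM in RAW, and the master factor Nfatc1 at 79.8 CPM in hMPDM and 61.0 CPM in RAW, without passing. Mmp9 was near absent in both, with 14 and 4 counts. The 6 were completed by Mmp14.

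Lysosomal genes were abundant in both libraries and few passed the rule: 1 of 37, Ctsh (407 and 1 counts), was higher in hMPDM, and Ctsk, Ctsf and Acp5 in RAW. Ctsd stood at 19043 CPM in hMPDM and 10119 CPM in RAW, Ctsb at 20366 CPM in hMPDM and 9498 CPM in RAW and Ctss at 1129 CPM in hMPDM and 2721 CPM in RAW. Of 20 iron and heme genes 2 were higher in hMPDM, the transferrin gene Trf among them, and 1 in RAW. The exporter Slc40a1 (ferroportin) was 4.69-fold higher (95% interval 4.15 to 5.32) in hMPDM, and the phagosomal transporter Slc11a1 4.81-fold higher (95% interval 4.39 to 5.27) in RAW.

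Lipid genes were called in both directions, 5 of 34 towards hMPDM and 4 towards RAW. Apoe, the main apolipoprotein of macrophages, stood at 25.5 CPM in hMPDM and 2.88 CPM in RAW, 8.88-fold higher (95% interval 4.91 to 17.9) in hMPDM, while unstimulated BMDM held 162 and 169 CPM. Abcg3 had 1098 and 1 counts and Pltp was 4.45-fold higher (95% interval 3.54 to 5.67). Lpl, lipoprotein lipase, was 4.98-fold higher (95% interval 4.72 to 5.27) in RAW at 144 CPM in hMPDM and 719 CPM in RAW, the sterol hydroxylase Cyp27a1 15.5-fold higher (95% interval 9.48 to 26.6), and the oxysterol receptor LXR alpha (Nr1h3) 4.63-fold higher (95% interval 3.24 to 6.61). All 23 tested genes of cholesterol synthesis and its control had a ratio above 0 (median 0.93, and 0.75 scaled by total counts), though 2 passed the rule, Tm7sf2 (7.45-fold higher, 95% interval 5.01 to 11.6) and the sterol-sensing Insig1 (4.31-fold higher, 95% interval 3.92 to 4.75). In the fit over both states 17 of the 23 were higher in hMPDM (29.9% of all genes) and 0 in RAW (24.8%), and 2 passed its test against a fold change of 2 (9.27% of all genes).

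Proliferation genes were modestly and broadly higher in RAW. None of 37 DNA replication and G1/S genes and none of 36 mitosis genes passed the 4-fold rule, but 34 and 35 of them had a ratio below 0, with medians of -0.60 and -0.68. Mki67 stood at 538 CPM in hMPDM and 960.4 CPM in RAW, Top2a at 361 CPM in hMPDM and 538 CPM in RAW, and Mcm2 at 142 CPM in hMPDM and 202 CPM in RAW. BMDM lay between them in Mki67, at 769 and 821 CPM. The fit over both states called 29 of the 37 and 34 of the 36 higher in RAW (24.8% of all genes), and 1 and 0 higher in hMPDM (29.9%). Against a fold change of 2 the fit called 3 of 37 and 4 of 36 higher in RAW (5.95% of all genes). In the list of cyclins D, CDK inhibitors and the p53 axis 4 of 35 were higher in hMPDM and 0 in RAW: Ccnd2, a D-type cyclin, had 916 and 3 counts, and Gadd45a, Trp53inp1 and Sesn2 were 6.67-, 5.35- and 4.21-fold higher. Cdkn2a had 9 counts in hMPDM and 0 in RAW, too few for the rule. Abl1, the cellular counterpart of the oncogene of the Abelson virus, stood at 141 CPM in hMPDM and 98.1 CPM in RAW and did not pass.

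Of 44 kinase and signalling genes, 3 passed each way: Prkcb (719 and 2 counts), Dusp6 (8.46-fold higher, 95% interval 6.64 to 10.9) and Spry2 (7.68-fold higher, 95% interval 3.99 to 17.0), the last 2 being feedback inhibitors of the ERK pathway, were higher in hMPDM, and Rras2 (33.4-fold higher, 95% interval 19.4 to 61.6), Src and Fgr (26.5-fold higher, 95% interval 18.2 to 39.9) in RAW. No apoptosis regulator of 28 passed. Of 27 stress response genes Trib3 (9.50-fold higher, 95% interval 5.81 to 16.7), Sesn2 and Ddit3 (4.12-fold higher, 95% interval 3.23 to 5.34) were higher in hMPDM and none in RAW, and scaled by total counts 1, Trib3, remained. Of 26 NRF2 and glutathione genes Gpx3 (641 and 1 counts) and Mgst1 (17.4-fold higher, 95% interval 7.94 to 47.7) were higher in hMPDM and Me1 (23.5-fold higher, 95% interval 14.1 to 41.2) in RAW.

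Of 32 glycolysis and HIF-1 target genes 3 were higher in RAW and 1 in hMPDM. Slc16a1 (7.91-fold higher, 95% interval 7.00 to 8.94), Slc16a3 (4.64-fold higher, 95% interval 4.13 to 5.20), both lactate carriers, and the glucose transporter Slc2a3 (6.91-fold higher, 95% interval 5.44 to 8.82) were higher in RAW, and Vegfa (8.82-fold higher, 95% interval 5.89 to 13.8) in hMPDM. Ldha stood at 476 CPM in hMPDM and 920.4 CPM in RAW and Pkm at 755 CPM in hMPDM and 1455 CPM in RAW, without passing. No respiratory chain gene of 45 passed the rule; their median was -0.28, and the fit over both states called 24 higher in RAW (24.8% of all genes) and 2 in hMPDM (29.9%), with 0 past its test against a fold change of 2 in either direction.

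Some differences were shared out between a gene and its near-identical copy. Rpl26, a ribosomal protein gene, stood at 64.4 CPM in hMPDM and 2.09 CPM in RAW, while its processed pseudogene Gm15772 stood at 0.0601 CPM in hMPDM and 65.4 CPM in RAW, so that the sums were 64.5 and 67.5 CPM. In the GENCODE M21 transcript of Rpl26 from which the printed stretches come, the 2 differ at 2 of 438 aligned bases, and 289 of 389 stretches of 50 bases, the read length, are the same in both (74.3%). The longest Rpl26 transcript, used in the search for near copies, gave a BLAST identity of 98.2%. The stretches around both differences are printed 5′ to 3′ with the differing base in capitals, since they show how little separates the gene from the copy. The gene lies on chromosome 11, 68901583 to 68906989, and the copy on chromosome 5, 3236431 to 3236868 (mm10, plus strand).
Rpl26, transcript bases 210 to 238: gttcaggttgttcgCggacactacaaagg
Gm15772, transcript bases 163 to 191: gttcaggttgttcgTggacactacaaagg
Rpl26, transcript bases 321 to 349: ggcacaaccgtccaTgtgggcatccaccc
Gm15772, transcript bases 274 to 302: ggcacaaccgtccaCgtgggcatccaccc
Eno1 and its copy Eno1b summed to 135.9 CPM in hMPDM and 141.8 CPM in RAW, where Eno1b alone passed the rule. Other pairs did not even out. Hmga1 and Hmga1b summed to 55.2 CPM in hMPDM and 104 CPM in RAW, and Lyz2 and Lyz1 to 8630 CPM in hMPDM and 13357 CPM in RAW. Rplp0 summed to 337 CPM in hMPDM and 269 CPM in RAW with its copy Gm8730, and to 338 and 227 CPM with Gm9625. Each of these sums leaves out the other copy. Gm8730 stood at 0.120 CPM in hMPDM and 59.1 CPM in RAW, and Gm9625 at 1.26 CPM in hMPDM and 17.0 CPM in RAW. Of 168 processed pseudogenes tested, 25 (14.9%) were higher in RAW and 1 in hMPDM. Of 421 genes with a copy of at least 95% identity over at least 50% of the transcript, 31 (7.36%) were higher in RAW and 22 (5.23%) in hMPDM. Of all genes, 2.84% were higher in RAW and 4.27% in hMPDM. Of the genes named above, C1ra, Ifit3, Ifi204, Me1, Ldha, Pkm, Lyz1, Lyz2 and H2-DMb1 have such a copy and their counts are uncertain, as are those of the ribosomal protein gene Rps2 (18.6-fold higher (95% interval 11.7 to 31.4) in hMPDM). Of 51 ribosomal protein genes, Rpl26, Rps2 and Rpl30 were higher in hMPDM and none in RAW, but 39 ratios were below 0, the median was -0.42, and the summed level was 5477 CPM in hMPDM and 6938 CPM in RAW. The fit over both states called 23 of them higher in RAW (24.8% of all genes) and 6 in hMPDM (29.9%).

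Many markers of other cell types had 0 counts, but some members and list sums were not low. The numbers at 0 are not alike in depth, since a count of 0 allowed up to 0.180 CPM in hMPDM and 0.785 CPM in RAW. Of the neutrophil markers 3 of 16 had 0 counts in hMPDM and 10 in RAW, Ly6g, Retnlg and Cd177 in both, and their summed level was 76.5 CPM in hMPDM, 24.9 in RAW and 134 to 139 in BMDM. Of 16 B cell markers, 10 and 13 were at 0, with Ms4a1 and Pax5 among them, while Ighm stood at 198 CPM in hMPDM and 1.57 CPM in RAW. Together the B cell markers came to 344 and 184 CPM, so nearly all of the RAW sum and part of the hMPDM sum came from members not named here. The sums of the T and NK cell and mast cell lists also came from members not named here, so the zeros do not show absence of the lists. Of 19 T and NK cell markers 12 and 16 were at 0, with Cd3d, Cd3e and Cd8a among them (sums of 122 and 68.5 CPM). Of 16 stromal markers 11 and 13 were at 0, with Col1a1, Col3a1 and Pdgfra among them (sums of 2122 and 2405 CPM, most of it Vim, which macrophages express). Of 17 dendritic cell markers 2 and 10 were at 0 (sums of 358 and 127 CPM), and of 15 mast cell markers 9 and 12 (sums of 388 and 271 CPM). Of 17 erythroid and megakaryocyte markers 10 and 14 were at 0, with the globin genes Hba-a1 and Hbb-bs among them (sums of 681 and 31.9 CPM, most of the first from Pf4 and Vwf). The members called higher in hMPDM, S100a9, Ighm, Bst2, Fn1, Pf4 and Vwf, were also counted in BMDM. What part other cells have in these differences was not tested.

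Xist, the RNA that coats the inactive X chromosome, stood at 1361 CPM in hMPDM and 8.37 CPM in RAW, 163-fold higher (95% interval 115 to 238) in hMPDM, and at 1267 and 1233 CPM in unstimulated BMDM. The Y-linked genes Ddx3y, Kdm5d, Eif2s3y and Uty had 0 counts in all 8 libraries. Genes on chromosome 3 had a median log2 ratio of -0.28 (478 genes of at least 5 CPM), and the medians of the 18 other autosomes and of chromosome X lay between -0.04 and 0.14. Without replicates no test of the chromosome 3 shift was made.

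The pair of libraries after LPS shares no library with the pair at rest and gave a second look at the same genes. There 802 genes (6.44%) were higher in hMPDM and 444 (3.56%) in RAW. Of the 532 genes higher in hMPDM at rest, 415 passed again in the same direction, 78.0% of the rest list and 51.7% of the LPS list, and 528 kept the sign. Of the 354 higher in RAW, 270 passed again, 76.3% and 60.8% of those lists, and 344 kept the sign. None of the 886 passed in the opposite direction. The 14 that changed sign include Tlr2, Cxcl16, Saa3, Myc and Dusp6.

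**Figure D4:**
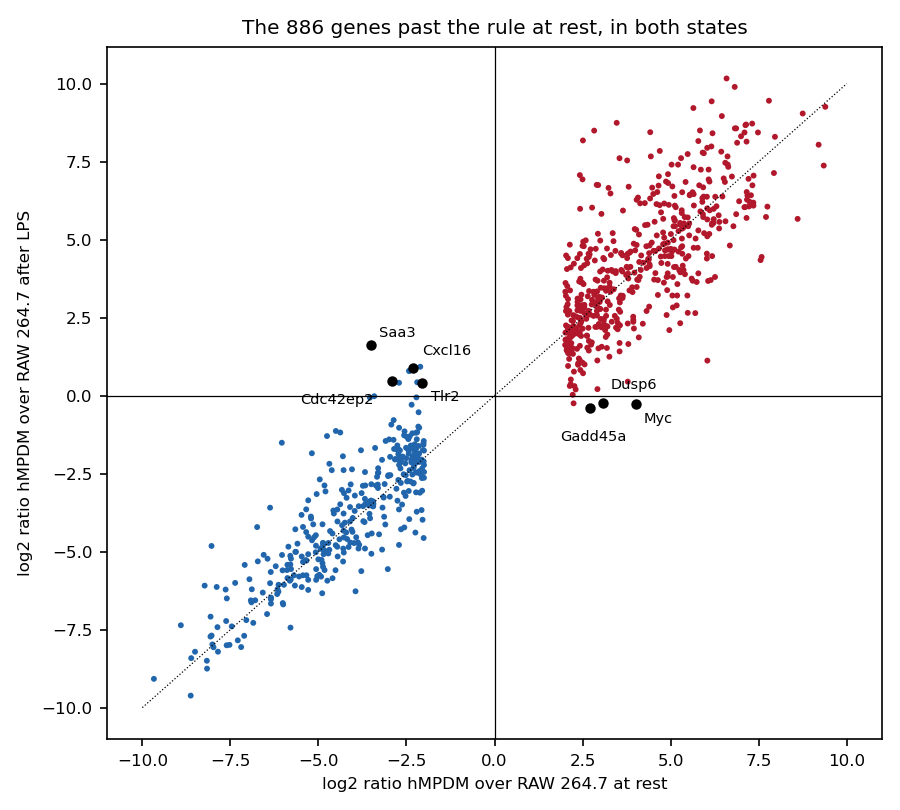
Log2 ratio of hMPDM over RAW at rest (horizontal axis) and after 3 h of LPS (vertical axis) for the 886 genes past the rule at rest, red where higher in hMPDM and blue where higher in RAW. The dotted line marks equal ratios, 528 red and 344 blue points keep their sign, and the labelled black points are 7 of the 14 genes whose sign changed.

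A fit over all 8 libraries tested the difference of hMPDM from RAW over both states (edgeR quasi-likelihood test, Benjamini-Hochberg adjustment, 4 residual degrees of freedom). It treats the states of a cell type as its replicates after a common LPS term, so it tests the average difference over the states. It called 3724 genes higher in hMPDM (29.9%) and 3095 higher in RAW (24.8%), and 1155 (9.27%) and 742 (5.95%) passed a test against a fold change of 2. The rest libraries are part of this fit, so it is no independent test of genes chosen by their ratio at rest. Among genes called at rest that did not pass were Myc (0.96, SE 1.00; adjusted p = 0.452), Tlr2 (-1.15, SE 0.65; adjusted p = 0.175) and Cybb (-1.35, SE 0.53; adjusted p = 0.0652). The share of called genes that were higher in hMPDM was 54.6% with TMM scaling and 34.4% with scaling by total counts (2337 genes higher in hMPDM and 4447 higher in RAW).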

How the data were processed

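Per the file headers, the values deposited are raw counts of reads for each gene, and a further column gives gene length in bases (unit other). Per the submitters' processing notes, cutadapt, STAR, SAMtools, bedtools and featureCounts were used with the mm10 build, with no version. The strand setting of the counting is not given in the sources used here. Of 10 value columns 8 matched a sample by name, and 2 were not used. Depth per library ran from 3116434 to 19307312 counts. Of the gene IDs, 42462 matched a symbol. The SE of a fitted value is its size over the square root of F, not a replicate error. Reads have no molecular identifiers, so intervals cover counting error only.

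Low genes were removed with filterByExpr and TMM scaling used all 8 libraries (edgeR 4.0.16, limma 3.58.1, R 4.3.3), with a prior count of 2 in log2 ratios. A gene at 0 counts in 1 library has its fold given as a bound against 3 counts in that library. Other results are the ratios, the size rule, the list counts and the fit with cell type and LPS as additive terms, called at an adjusted p under 0.05. This fit was also run on simulated counts with a constant hMPDM change and no LPS effect. That run cannot check the common LPS term or the use of states as replicates. On the real counts the common coefficient of variation of the fit was 12.3%. DESeq2 1.42.0 was an alternative. Transcripts of GENCODE M21 were compared with BLAST 2.17.0. BMDM replicate numbers did not pair the libraries (correlation of deviations -0.03), and p-values reflect only how these samples vary, which can be technical variation.

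The comparison, the 40 gene lists and the rules were chosen with earlier results of these data known. Genes named are the 20 protein-coding genes of largest ratio in each direction, up to 5 called members per list and direction, and a set of anchor genes. Other genes named were chosen after their values were seen. The values of some genes are not reported here.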

Additional observations from a re-analysis of the deposited data

Results flagged for a closer look

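For 14 genes past the rule at rest, the ratio of hMPDM over RAW had the opposite sign after LPS, where it rests again on 1 library a side. The difference between the states was not tested, and none of the 14 was past the rule in the opposite direction. Of genes higher in hMPDM at rest, the log2 ratio after LPS was -0.38 for Gadd45a, -0.27 for Myc, -0.25 for Arvcf and -0.24 for Dusp6. Of genes higher in RAW at rest it was 1.63 for the acute phase gene Saa3, 0.93 for Acp5, 0.89 for Cxcl16, 0.79 for Abtb2, 0.79 for Phf11d, 0.47 for Cdc42ep2, 0.43 for Fnbp1l, 0.42 for Tlr2 and 0.33 for Igf2bp2. Saa3 stood at 1.56 CPM in hMPDM and 19.9 CPM in RAW at rest and at 349.5 and 113 CPM after LPS. Cdc42ep2, a CDC42 effector, stood at 0.601 and 5.76 CPM at rest and at 70.5 and 50.7 CPM after LPS.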

How the results depend on the processing

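The counts at rest, 532 higher in hMPDM and 354 higher in RAW, depended on the rule. They were 879 and 577 at a minimum of 1 CPM, 310 and 181 at 20 CPM, 1230 and 975 at 2-fold, and 348 and 234 at 8-fold. Under the other scalings, other prior counts, the interval bound, protein-coding genes alone and removal of genes with a near-identical copy (the last chosen after seeing the data) they stayed within 1.5 times, at 387 to 554 and 287 to 424. The counts of genes past the rule in both states, 415 and 270, were 232 and 139 at 20 CPM. In the fit over both states, the count higher in hMPDM, 3724, was 2337 with scaling by total counts, and without the BMDM libraries the counts were 1563 and 1378, from 1 residual degree of freedom. Leaving out 1 library at a time gave 2854 to 4029 higher in hMPDM and 2283 to 3277 higher in RAW (the removal of hMPDM or RAW libraries was added after seeing the data). With the replicate block the counts were 3305 and 2763, with DESeq2 3431 and 3094, and for the difference at rest alone, with 1 coefficient per group and the spread of the BMDM pairs, 3805 and 3347. Library size scaling turned the median of the apoptosis regulators from 0.15 to -0.023 and moved 81 of 367 values of single genes and lists by more than their interval or spread. Depth limits the RAW side, where a count of 0 allows 0.785 CPM. With 1 library a side, no value at rest has a replicate error.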
